A study of Saccharomyces cerevisiae W303 with 4 samples.

Results

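Tandem intergenic regions are the stretches of DNA between 2 neighbouring genes that are read in the same direction, so that each one holds the end of the upstream gene and the start of the downstream gene. Here they were taken as the nuclear intervals between neighbouring protein-coding sequences (CDS) on the same strand of the R64 reference, of 100 bp or more, with no tRNA gene, long terminal repeat, Ty element, centromere or ribosomal DNA inside. Of 2828 intervals between same-strand neighbours, 2775 had this length, 175 of these held such a feature, and 2600 remained. They make up 2600 of the 5246 intergenic regions that pass the same filters in all 3 orientations, beside 1390 divergent regions (between 2 gene starts) and 1256 convergent regions (between 2 gene ends). Their median length was 391 bp, and together they cover 11.3% of the nuclear genome.

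The protein studied is Zuo1, a J-domain protein of Saccharomyces cerevisiae that sits at the ribosome with Ssz1 and assists the Hsp70 Ssb, and that the study examined as a protein binding G-quadruplexes (G4), the four-stranded folds of G-rich DNA. Cells of the W303 background that carry Zuo1 with a C-terminal Myc tag were grown at 30 °C for 5 h and crosslinked with 1% formaldehyde at an OD of 0.6. DNA was sequenced from 2 Myc immunoprecipitations (IP) and from 2 inputs of the same tagged strain, and an untagged strain was not analysed here. The authors pooled the libraries and called peaks of IP over input with MACS, so each peak has 1 position, 1 summit (the base of highest signal) and 1 fold enrichment over the local background, and no value of a single replicate. No spread between replicates can be given and no test was run, and every comparison below is a description of 1 pooled peak list.

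In a tandem region the upstream gene supplies the 3' part, where the RNA is cleaved and polyadenylated and RNA polymerase II terminates. The downstream gene supplies its promoter, which in yeast is usually a nucleosome-depleted stretch with sites for transcription factors such as Reb1, Rap1 and Abf1 some distance before the start codon. Both functions share a short piece of DNA, so a protein found there may lie at either of them, and the distance to each CDS is the measure used here. Chromosome ends are an unusual setting for tandem regions, because the subtelomeric PAU genes (seripauperins) and the Y' elements with their helicase genes are separated by arrays of TG-rich telomeric repeats.

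The sequences at the strongest summits are shown first, because those at chromosome ends and those in the interior are of different kinds. All are from the R64 reference (strain S288C), written 5' to 3' on the strand of the flanking genes, with runs of 3 or more G or of 3 or more C in capitals. The 4 strongest summits at least 200 bp from both CDS were all within 20 kb of a chromosome end. The 100 bases at these summits, with the summit at base 51, hold telomeric repeats:
IMD2/YHR218W, chrVIII:556864-556963, plus strand: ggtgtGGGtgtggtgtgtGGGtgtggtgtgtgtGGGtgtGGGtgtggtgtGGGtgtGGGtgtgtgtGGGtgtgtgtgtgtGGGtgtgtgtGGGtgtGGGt
PAU18/YLL066C, chrXII:11214-11313, minus strand: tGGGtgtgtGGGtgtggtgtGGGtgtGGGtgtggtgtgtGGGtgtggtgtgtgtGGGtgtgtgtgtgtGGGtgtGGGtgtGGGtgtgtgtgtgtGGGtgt
PAU4/YLR462W, chrXII:1065010-1065109, plus strand: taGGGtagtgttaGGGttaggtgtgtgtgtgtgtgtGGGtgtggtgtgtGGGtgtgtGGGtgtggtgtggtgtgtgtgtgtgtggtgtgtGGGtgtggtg
PAU10/YRF1-1, chrIV:1525369-1525468, plus strand: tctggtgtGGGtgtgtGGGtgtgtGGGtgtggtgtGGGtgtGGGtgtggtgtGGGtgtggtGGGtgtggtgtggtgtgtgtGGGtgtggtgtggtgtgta

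Their GC content was between 56% and 62%, and the runs of G all lay on the strand of the genes. A G4 motif, here 4 G runs of at least 3 bases each, spaced by loops of 1 to 25 bases, overlaps each of these 4 peaks. The motif nearest to the summit in PAU10/YRF1-1 is shown as an example of its spacing, with runs of G that are mostly separated by a few bases:
PAU10/YRF1-1, chrIV:1525377-1525452, plus strand: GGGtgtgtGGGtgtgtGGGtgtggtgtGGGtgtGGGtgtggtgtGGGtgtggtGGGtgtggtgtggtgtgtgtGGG

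The 4 strongest summits of the same kind outside the terminal 20 kb, a set added after the values were seen, had no repeat of this type. As at the 4 terminal summits, 50 bases around each of them occur once in the genome:
MRP20/PDR15, chrIV:1278785-1278884, plus strand: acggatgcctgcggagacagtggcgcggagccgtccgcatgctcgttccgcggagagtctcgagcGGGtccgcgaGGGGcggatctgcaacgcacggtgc
PTC2/DOT6, chrV:335630-335729, minus strand: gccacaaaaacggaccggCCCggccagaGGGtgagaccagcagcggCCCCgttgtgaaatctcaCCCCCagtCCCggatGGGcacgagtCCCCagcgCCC
VMA13/SPO24, chrXVI:645533-645632, plus strand: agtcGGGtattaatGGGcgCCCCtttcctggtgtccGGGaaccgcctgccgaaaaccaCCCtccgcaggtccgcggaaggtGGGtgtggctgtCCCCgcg
FAS2/USV1, chrXVI:114784-114883, plus strand: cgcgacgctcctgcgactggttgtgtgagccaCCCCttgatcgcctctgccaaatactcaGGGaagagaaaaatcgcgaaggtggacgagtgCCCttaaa

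Here the GC content was 71%, 69%, 67% and 56%, against a median of 35.0% over 5583 tiles of 200 bp that cover the tandem regions. PTC2/DOT6 has its runs mainly as C on the gene strand, while MRP20/PDR15 and FAS2/USV1 have few runs at all. Closer than 200 bp to the upstream stop codon, the 30 bases at the 4 strongest summits, with the summit at base 16, ranged from 23.3% to 76.7% GC:
DNF2/GIS1, chrIV:636245-636274, plus strand: aacgccgcgcagagccttgagtaggaaGGG
YML100W-A/TSL1, chrXIII:70393-70422, plus strand: aGGGGcGGGGGtccGGGcagcggctatggt
YHR054C-B/YHR054C, chrVIII:214369-214398, minus strand: ggtatacgttaataattaagaaaaggaaat
API2/SNA2, chrIV:1490277-1490306, plus strand: gacgtattctcGGGaaataagcaggtccag

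A summit lay inside 103 of the 2600 tandem regions (3.96%), against 4.68% of divergent regions, 5.25% of convergent regions, 4.46% of all intergenic regions and 13.8% of CDS. Of tiles of 400 bp laid over the nuclear genome, 5.08% held a summit. The 103 regions held 111 of the 1543 nuclear summits, 1 each in 95 regions and 2 each in 8 regions, and 2497 regions held none. Per length, tandem regions held 0.811 summits per 10 kb (95% Poisson interval 0.667 to 0.977), divergent regions 0.805 (0.629 to 1.02), convergent regions 1.70 (1.32 to 2.16) and CDS 1.14 (1.07 to 1.21). The rest of the nuclear genome held 1.34 summits per 10 kb, and the ratio of tandem regions to it was 0.606. These intervals, and the Wilson intervals given for shares, are at 95% and cover counting error only. Tandem regions thus held summits about as densely as divergent regions, and their interval lay below those of convergent regions and CDS.

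**Figure D1:**
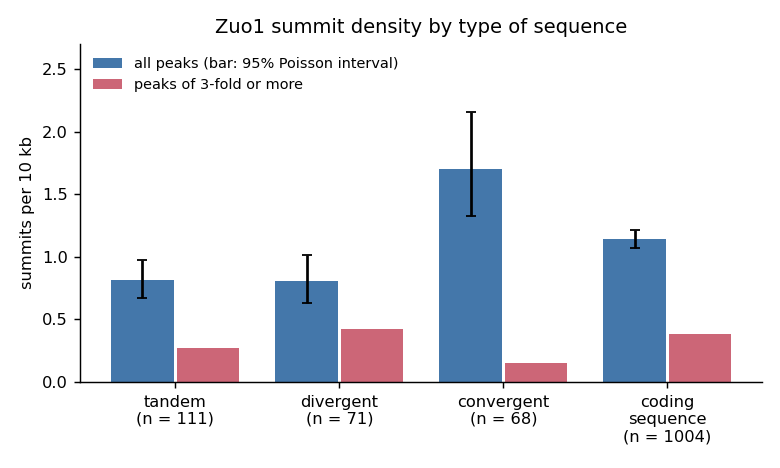
Summits per 10 kb (y axis) in tandem, divergent and convergent intergenic regions and in coding sequence, for all peaks (blue, with 95% Poisson intervals) and for peaks of 3-fold or more (red), with n the number of summits. Tandem regions held 0.811 per 10 kb for all peaks and 0.270 for peaks of 3-fold or more, against 1.70 and 0.150 in convergent regions.

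The order of the orientations was different for strong peaks. Peaks of 3-fold or more had a summit in 36 tandem regions (1.38%), against 2.52% of divergent regions, 0.478% of convergent regions, 1.47% of all intergenic regions, 5.38% of CDS and 1.51% of the tiles. Their density was 0.270 per 10 kb in tandem regions, between 0.420 in divergent and 0.150 in convergent regions, and it was 0.380 in CDS. The fold enrichment of the 111 tandem peaks ranged from 1.67 to 11.3 with a median of 2.53 (quartiles 2.11 and 3.26), against medians of 3.11 in divergent regions, 2.15 in convergent regions and 2.45 in CDS. It was 5 or more in 12 tandem peaks, from 3 to under 5 in 25, from 2 to under 3 in 49 and under 2 in 25. At a tandem summit the number of IP fragments had a median of 97 (58 to 471), recovered from the deposited fold and p-value, over a local background of 37.8 fragments scaled to the IP.

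The 175 tandem intervals left out for a tRNA gene, repeat, centromere or ribosomal DNA held more summits than all 2600 members together. They had 124 summits, or 4.38 per 10 kb (3.64 to 5.22), with a median fold of 2.36 and 9.68% of peaks at 3-fold or more, against 33.3% in the members. The interval YLR162W/RRT15 in the interior of chromosome XII, a copy of ribosomal DNA that was left out by its sequence, had a fold of 11.2, which would have been the second highest among tandem summits. The length limit removed little, since none of the 11 intervals of 80 to under 100 bp and none of the 16 of 100 to under 120 bp held a summit.

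Most of the strongest tandem peaks fell into 2 settings, chromosome ends and GC-rich stretches in the chromosome interior. IMD2/YHR218W on the right end of chromosome VIII had the highest fold, 11.3, with 449 IP fragments over a background of 38.9. IMD2 encodes an IMP dehydrogenase of guanine nucleotide synthesis. PAU18/YLL066C and PAU4/YLR462W, at the left and right end of chromosome XII, had folds of 10.9 and 9.62, and PAU10/YRF1-1 on chromosome IV had 9.09. YRF1-4/YRF1-5, between 2 helicase genes of neighbouring Y' elements on chromosome XII, had 7.34. Of its peak of 2519 bp, 1864 bp lay in the CDS of YRF1-4, and the 200 bp at the summit had 39.5% GC. These 5 summits are the terminal ones among the 12 of 5-fold or more. The other 7 lay in the interior. At all 12, the 50 bases around the summit occur once in the reference, a count that does not cover the rest of the peak.

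Among those, the peak of MRP20/PDR15 (chrIV:1278582-1279491) reached 8.58-fold, 398 bp after the stop codon of MRP20, a mitochondrial ribosomal protein gene, and 375 bp before the start of PDR15, which encodes a multidrug ABC transporter. PTC2/DOT6 (chrV:335429-336592) had 8.37 between the genes of a type 2C protein phosphatase and of Dot6, a repressor of ribosome biogenesis genes. VMA13/SPO24 (chrXVI:645316-645819) had 8.23 after the gene for subunit H of the vacuolar proton pump, with the whole peak inside the region and 64.0% GC in the 200 bp at its summit. No G4 motif lay in it. DNF2/GIS1 (chrIV:635765-636507) had 7.95, with its summit 140 bp after the stop codon of the lipid flippase gene DNF2. YML100W-A/TSL1 on chromosome XIII had 6.53, 97 bp after the stop codon of YML100W-A and 216 bp before TSL1, a gene of the trehalose synthase complex. Its peak of 1646 bp had 19.0% of its length in the region and also reached the CDS of CAC2 and CUE4.

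Both genes of yeast fatty acid synthase bordered a strong summit, but each summit lay nearer the other gene of its pair. FAS2/USV1 on chromosome XVI had 5.72, 519 bp after the stop codon of FAS2, the alpha subunit gene, and 478 bp before USV1, and the peak reached neither CDS. LOT5/FAS1 on chromosome XI had 4.92, 241 bp after the stop codon of LOT5 and 789 bp before the start codon of FAS1, the beta subunit gene. Of its peak, 647 bp lay in LOT5. PMA1/LEU1 on chromosome VII had 5.36 at 233 bp after the stop codon of PMA1, the plasma membrane proton pump, and its peak was of another shape. It was 3795 bp long, 2757 bp of it in the CDS of PMA1, with 32.5% GC at the summit. YER145C-A/FTR1, before the iron permease gene FTR1, had 4.84 in a peak of 402 bp wholly inside the region. YHR054C-B/YHR054C had 4.73, in a peak of 4210 bp that also spans the metallothionein genes CUP1-1 and CUP1-2, a locus with repeated sequence.

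The strong interior peaks were then divided by the GC content at the summit. Outside the terminal 20 kb, 29 tandem summits had a fold of 3 or more, and in 22 of them the 200 bp at the summit had 50% GC or more. These 22 peaks had a median length of 390.5 bp (297 to 1646), 9 reached into the upstream CDS, and 13 lay nearer the upstream end. The other 7 were PMA1/LEU1, YHR054C-B/YHR054C, RPL9B/SUN4, PDR5/SLP1, RPL8A/SBP1, PCL1/CAF40 and RPS8A/AAR2. Their peaks had a median length of 1592 bp (741 to 4210), a range that overlaps that of the GC-rich peaks, and 6 of the 7 reached into the upstream CDS. None of these 7 had a G4 motif in the peak, against 8 of the 22 GC-rich ones.

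Over all 111 summits, the median GC content of the 200 bp window was 39.0%, with 54.0% at the 37 summits of 3-fold or more and 34.5% at the 74 under 3-fold, against 35.0% in the tiles. A GC content of 50% or more was found at 70.3% of the summits of 3-fold or more and 18.9% of those under 3-fold, against 1.29% of tiles. The summits under 3-fold thus had a median close to that of the tiles, with a tail of GC-rich windows. Of 21 summits of 3-fold or more outside the terminal 20 kb that had no G4 motif in the peak, 14 (66.7%) were GC-rich as well. The GC content of the input and of the reads was not analysed here, and the part of base composition in sequencing yield was not tested.

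**Figure D2:**
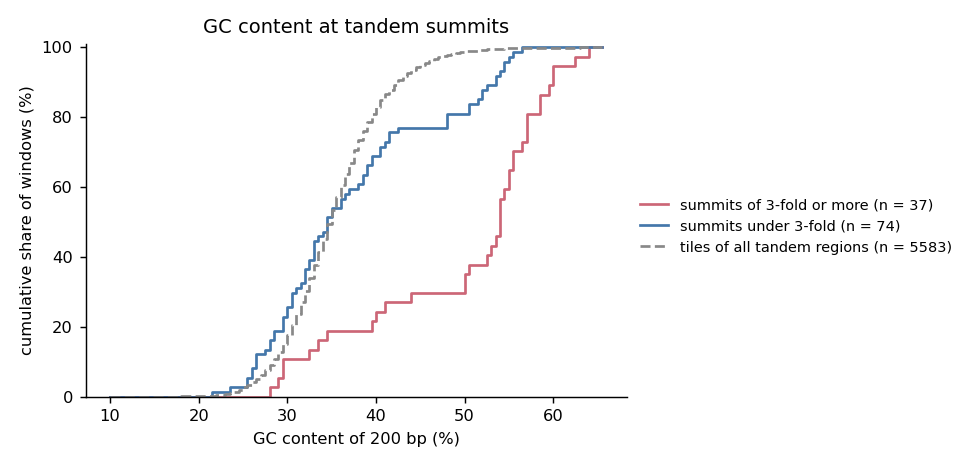
Cumulative share of 200 bp windows (y axis, %) by GC content (x axis, %), for tandem summits of 3-fold or more (red), tandem summits under 3-fold (blue) and tiles of all tandem regions (grey, dashed). The windows at the 37 strong summits had a median of 54.0% GC, against 34.5% at the 74 weaker summits and 35.0% in the tiles.

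A G4 motif lay in 84 of the 2600 regions, and 19 of them (22.6%, Wilson interval 14.99 to 32.6) held a summit, against 3.34% of the 2516 regions without a motif and 3.96% of all. Outside the terminal 20 kb it was 12 of 72 regions (16.7%). The 84 regions with a motif had a median length of 678.5 bp and 2.85 summits per 10 kb, against 384 bp and 0.677 in those without. A motif lay in the peak of 15 of the 37 summits of 3-fold or more and of 3 of the 74 under 3-fold. Peaks with a motif, terminal ones included, had a median fold of 5.54, against 2.36 in those without. Counted by region, summits in regions with a motif had a median fold of 3.59, against 2.30 in regions without. Outside the terminal 20 kb the regions with a motif had 3.21. Of the 97 motifs that touch a tandem region, 52 had their runs of G on the gene strand and 45 on the other strand, and 35 were overlapped by a peak. Outside the terminal 20 kb the strongest regions with a motif were MRP20/PDR15 (8.58), PTC2/DOT6 (8.37), DNF2/GIS1 (7.95), YML100W-A/TSL1 (6.53) and TIM23/RCF2 (3.93). In MRP20/PDR15 the motif of the region was 333 bp from the summit and outside the peak, while in PTC2/DOT6, YML100W-A/TSL1 and TIM23/RCF2 the summit lay inside it. The peak of MRP20/PDR15 held another motif, in the CDS of PDR15, since the counts of motifs in peaks include those in a CDS.

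When the regions were ranked by GC content and divided into 5 groups of 520, the group of highest GC (37.1% to 51.3%) held a summit in 9.42% of cases, while the other 4 groups had 2.12% to 3.08%. The group of lowest GC, up to 30.9%, had 2.88%. The groups also differed in length, with a median of 517.5 bp in the highest and 313.5 bp in the lowest. Per 10 kb the highest group held 1.55 summits, the lowest 0.820 and the groups between 0.327 to 0.682. Length was another measure that went with the presence of a summit. No summit lay in the 176 regions under 200 bp, which allows a share of up to 2.14% (Wilson), while 0.661% of regions from 200 to under 300 bp, 1.96% from 300 to under 500 bp, 6.80% from 500 to under 1000 bp and 16.5% of 1000 bp or more held one. The density per 10 kb over these classes was 0, 0.262, 0.502, 1.01 and 1.17, so that longer regions held more summits also per length. Regions with a summit had a median length of 774 bp, against 384 bp without. The longest region with a summit spans 4831 bp, and long regions without one were found as well. SWH1/FLO1, the longest of those, spans 7217 bp before the flocculin gene FLO1, ZPS1/FRE7 spans 5340 bp, ADH4/ZRT1 spans 4670 bp before the zinc transporter gene ZRT1, and no peak touched any of them.

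**Figure D3:**
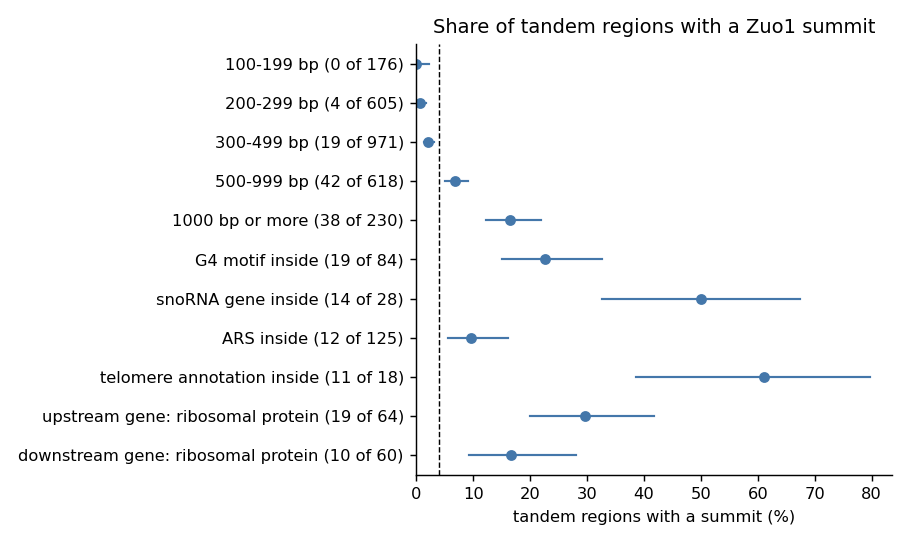
Share of tandem regions with a summit (x axis, %) by length, content and flanking gene, with 95% Wilson intervals and the number of regions in brackets, where the dashed line is the 3.96% of all tandem regions. The share was 0 in the shortest class and 16.5% in the longest, 22.6% with a G4 motif, 50% with a snoRNA gene, and 29.7% downstream of a ribosomal protein gene. The classes by content also differ in region length.

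Small RNA genes lie between protein-coding genes and were kept as members. A snoRNA gene, whose RNA guides modification or processing of ribosomal RNA, lay in 28 regions, and 14 of these (50%, 32.6 to 67.4) held a summit. With snRNA and other noncoding RNA genes added it was 17 of 53 regions (32.1%). The snoRNA regions had a median length of 1063.5 bp and 4.91 summits per 10 kb, against 388 bp and 0.718 in regions without a snoRNA gene. The summits of the snoRNA regions had a median fold of 2.30, against 2.53 over all tandem summits, and 3 of the 28 regions (10.7%) had one of 3-fold or more, against 1.38% of all tandem regions. SPR3/ERG25, which holds SNR48, had 4.12, with the summit 216 bp from the snoRNA gene. PCL1/CAF40 had 3.08 with the summit inside SNR40, RPS8A/AAR2 had 3.003 at 226 bp from SNR56, and IRC13/DFR1 had 2.86 at 152 bp from SNR17A, a U3 gene that guides processing of the ribosomal RNA precursor. An annotated replication origin (ARS) lay in 125 regions, and 12 (9.60%, 5.58 to 16.03) held a summit. These included IMD2/YHR218W, PAU9/YBL111C (3.99), PCL1/CAF40 and YDR170W-A/HSP42 (3.05), with distances from the summit to the ARS of 583, 714, 309 and 108 bp. In none of the 14 summits of these 12 regions did the summit lie in the ARS. Regions with an ARS had a median length of 682 bp and 1.19 summits per 10 kb, against 384 bp and 0.776 in those without. The 2277 regions with no G4 motif, noncoding RNA gene or ARS and outside the terminal 20 kb held a summit in 57 cases (2.50%, 1.94 to 3.23).

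Within the terminal 20 kb lay 93 regions, of which 13 (14.0%, 8.35 to 22.5) held 19 summits, and 11 of the 18 regions that overlap an annotated telomeric element (61.1%, 38.6 to 79.7) held 17 of these. The 93 regions had a median length of 1272 bp and 1.47 summits per 10 kb, against 385 bp and 0.742 elsewhere. The regions with 2 summits were mostly in the terminal 20 kb. They were IMD2/YHR218W, PAU18/YLL066C, PAU4/YLR462W, PAU10/YRF1-1, YRF1-4/YRF1-5 and PAU14/YIL177C at chromosome ends, and KSH1/SSN8 and YCF1/MRX16 elsewhere. In the first 5, the second summit had folds of 2.46, 2.55, 1.96, 3.24 and 2.88. Of all 111 summits, 14 had 50 bases around them that occur more than once in the reference, 13 of these in the terminal 20 kb. At these the copy that gave the reads cannot be told apart. PAU22/YRF1-7 (4.54) had 12 copies and PAU9/YBL111C had 14. The reference is S288C, and the chromosome ends of the W303 strain used may differ from it.

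The position of the summits between the 2 genes was measured from the stop codon of the upstream gene and from the start codon of the downstream gene. Of the 111 summits, 62 were nearer the upstream end, 48 nearer the downstream start and 1 was at the same distance from both, which makes 43.6% nearer the start (Wilson interval 34.7 to 53.0). The median distances were 341 bp from the stop codon and 409 bp to the start codon. The pooled share joined opposite values. In the terminal 20 kb, 2 summits were nearer the upstream end and 17 nearer the downstream start, and elsewhere it was 60 and 31 (34.1% nearer the start, 25.2 to 44.3). Of the terminal summits, 13 lay at sequence with more than 1 copy in the reference, and all 13 were nearer the start. The terminal split is therefore not a count of independent sites. In pairs on the plus strand 37 lay nearer the end and 24 nearer the start, and on the minus strand it was 25 and 24. The side also went with region length. In regions from 300 to under 500 bp 15 summits were nearer the end and 4 nearer the start, in those from 500 to under 1000 bp 23 and 19, and in those of 1000 bp or more 21 and 25. The median fold was 2.48 on the upstream side and 2.52 on the downstream side.

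**Figure D4:**
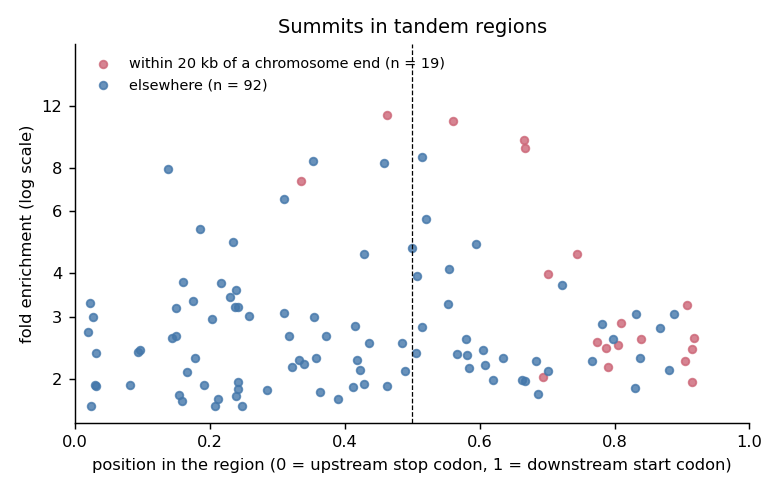
Fold enrichment (y axis, log scale) of the 111 tandem summits by their position in the region (x axis, 0 at the upstream stop codon and 1 at the downstream start codon), in red within 20 kb of a chromosome end (n = 19) and in blue elsewhere (n = 92). Of the red summits 17 lie nearer the downstream start, and of the blue ones 31, with 60 nearer the upstream end. Of the red summits, 13 lie at sequence with more than 1 copy in the reference, all nearer the downstream start.

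The last bases before the downstream gene were almost without summits. In the 100 bp before the start codon 2 summits were found in 260000 bp, or 0.0769 per 10 kb (0.00932 to 0.278), in the next 100 bp it was 14 (0.552 per 10 kb), and in the 100 bp after that 24 (1.12 per 10 kb, 0.720 to 1.67). The same order was found at divergent starts, with 0.180, 0.440 and 1.16 per 10 kb. At the upstream stop codon the first 100 bp held 16 summits (0.615 per 10 kb, 0.352 to 0.999), and the next 100 bp held 24 (0.947). Without regions beside a ribosomal protein gene these densities were 0.403 and 0.621 per 10 kb, and before the start codon they were 0.0807, 0.331 and 0.839 per 10 kb in the same 3 steps. At convergent stop codons both values were higher, 1.47 and 1.82 per 10 kb, where each base of a convergent region counts for 2 genes.

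The density was highest just inside the upstream gene. From 200 to 100 bp before the stop codon, still in the CDS, 80 summits were found, or 3.12 per 10 kb (2.47 to 3.88), against 1.12 in the last 100 bp of the CDS. The last 500 bp of the upstream CDS held 226 summits (1.83 per 10 kb), and the first 500 bp of the downstream CDS held 120 (0.959 per 10 kb). Without pairs that include a cytosolic ribosomal protein gene the values were 1.57 and 0.745. A CDS can flank a tandem region on each side and then counts in both.

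**Figure D5:**
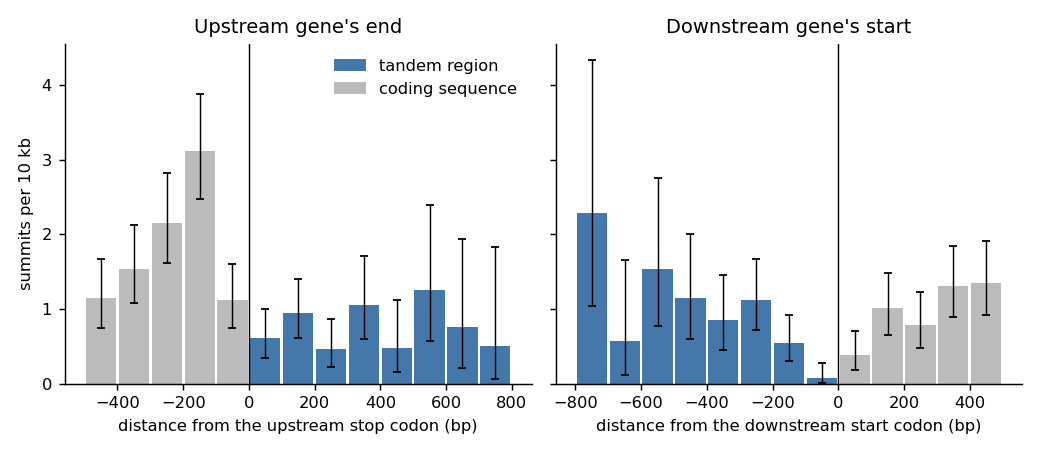
Summits per 10 kb (y axis) in bins of 100 bp by distance from the upstream stop codon (left) and the downstream start codon (right, x axes in bp), in tandem regions (blue) and in the flanking coding sequence (grey), with 95% Poisson intervals. The highest bin is in the upstream coding sequence at 3.12 per 10 kb, and the lowest is the 100 bp before the start codon at 0.0769.

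Many tandem regions were reached by a peak whose summit lay in a gene. A peak overlapped 281 regions (10.8%) by at least 1 bp, and 178 of these held no summit. In 127 of the 178 the summit was in the upstream CDS alone, in 33 in the downstream CDS alone and in 8 in both, and the other 10 involved a summit elsewhere. The peaks from the upstream CDS reached in by a median of 98 bp, those from the downstream CDS by 63 bp, with median folds of 3.47 and 3.06. In the other direction, 39 of the 111 peaks with a tandem summit reached into the upstream CDS and 22 into the downstream CDS, 5 of them into both, and 55 lay wholly inside the region. Of the 62 summits nearer the upstream end, 35 had a peak reaching into the upstream CDS, and of the 48 nearer the start, 15 had a peak reaching into the downstream CDS. A summit inside the region was found in 6.44% of the 404 regions whose upstream CDS also held a summit, against 3.51% of the other 2196, and in 9.39% of the 309 whose downstream CDS held one, against 3.23% of the other 2291.

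Ribosomal protein genes were the list of flanking genes with most summits in tandem regions. All 138 listed genes for proteins of the cytosolic ribosome were found in the annotation, of which 64 lie upstream and 60 lie downstream of a tandem region. As upstream gene, 19 of 64 regions (29.7%, 19.9 to 41.8) held a summit, in 17 nearer the end of the ribosomal protein gene. As downstream gene, 10 of 60 (16.7%, 9.31 to 28.0) held one, in 7 nearer the start. All tandem regions together had 3.96%. The summits of the upstream list had a median fold of 2.30, against 2.53 over all tandem summits, and 4 of the 64 regions (6.25%) had one of 3-fold or more, against 1.38% of all tandem regions. RPS9B/RPL21A had 3.71, between 2 ribosomal protein genes, 212 bp before RPL21A. RPL9B/SUN4 had 3.42 at 289 bp after the stop codon, RPL8A/SBP1 had 3.19 at 176 bp, and RPS8A/AAR2 had 3.003 at 20 bp. Of regions with the ribosomal protein gene downstream, GYP5/RPL36B had 3.28 at 192 bp before the start, YLR406C-A/RPL31B had 2.996 at 291 bp and YLR365W/RPS22B had 2.79 at 121 bp. A peak touched 51 of the 64 regions after a ribosomal protein gene (79.7%), of which 31 were reached by a peak with its summit in that gene.

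The other gene lists border few tandem regions, so that a count of 0 or 1 cannot be told apart from the 3.96% of all tandem regions. It is no result about these genes. Among genes of glycolysis and fermentation, 1 of 9 regions downstream of a listed gene held a summit, PFK2/INP1 (1.90-fold, 232 bp after the stop codon of the phosphofructokinase gene PFK2), and 0 of 11 regions upstream of one did. It was 0 of 14 and 0 of 12 for translation factors, 0 of 7 and 0 of 11 for the 18 listed heat-shock and ribosome-associated chaperones, a list that does not hold HSP42 or KAR2, which each border a tandem summit (3.05 and 1.93-fold), and 0 of 3 and 0 of 9 for cell wall and secreted proteins. With so few regions these counts allow shares up to an upper Wilson bound of 21.5% for the 14 regions and 56.1% for the 3. The upstream CDS itself held a summit in 77.8% of the glycolysis, 85.7% of the translation factor, 85.7% of the chaperone and 66.7% of the cell wall pairs, and in 73.4% of the ribosomal protein pairs, against 15.5% of all upstream genes. A peak touched 5 of the 9 regions after a glycolysis gene (55.6%) and 6 of the 14 after a translation factor gene (42.9%), against 10.8% of all tandem regions. After a chaperone gene it was 3 of 7, and after a cell wall gene 2 of 3. With the listed gene downstream it was 5 of 11 for glycolysis (45.5%), 1 of 12 for translation factors, 1 of 11 for chaperones and 2 of 9 for cell wall genes. Expression of these genes was not analysed here.

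Short motifs of promoters were counted in the 200 bp at each summit, on both strands, and set beside the share of the 5583 tiles. The windows may extend into a CDS. The Rap1 letters ACCCANNCA were in 10 of 111 windows (9.01%) and 2.35% of tiles. Rap1 binds many ribosomal protein promoters as well as the telomeric repeats. The telomeric repeats printed above hold these letters on the other strand, and the windows were not divided into terminal and interior ones. The G4 motif was in 8.11% of windows and 1.24% of tiles. The Reb1 letters TTACCCG were in 4.50% of windows and 4.14% of tiles, the Mbp1 letters ACGCGT in 3 of 111 windows and 2.24% of tiles, and the ribosome biogenesis element AAAAATTT (RRPE) in 9.91% and 9.85%. The TATA letters TATAAA were in 19.8% of windows and 35.1% of tiles, and runs of 10 or more A or T in 8.11% and 13.2%. These letters depend on base composition, and a match is not a bound site.

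By chromosome, the share of tandem regions with a summit ranged from 1.41% on chromosome XI (2 of 142) to 7.18% on chromosome XII (15 of 209). Chromosome XII also had the highest density, 1.78 per 10 kb. It carries 3 of the 5 strongest terminal regions, beside the ribosomal DNA that was left out.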

How the data were processed

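ChIP-seq libraries of Myc-tagged Zuo1 (2 IP, 2 input) were grouped from the sample labels. The authors aligned reads to sacCer3 with Bowtie2 and called narrow peaks on the pooled libraries with MACS2 (MACS 2.0 in the methods) at a q-value of 0.05. The version of the aligner is not given in the sources used here. The deposited list has the header of another MACS table and was read by position. Its fold enrichment is the authors' ratio, at the summit, of IP over the local background. The −log10 p-value and −log10 q-value, and the score made from the latter, are deposited values as well. The command in the study's reporting summary lists an input file with the treatments and an IP file with the controls. IP over input was assumed here, on which the meaning of each fold depends.

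Regions, CDS, noncoding RNA genes, ARS and telomeric elements came from the R64 annotation. The interval YLR162W/RRT15 holds a copy of ribosomal DNA without annotation and was left out by sequence (exact 50-base matches), a choice made after its peak of 11.2-fold was seen. A summit was assigned to the side of the nearer CDS. Densities were summits over the bases present, with exact Poisson intervals, and shares have Wilson intervals. IP fragments were recovered as the whole number that, with the fold (both counts plus 1), came closest to the deposited Poisson p-value. The −log10 p-value was met within 0.05 in 100% of peaks. G4 motifs were 4 G runs of at least 3 bases with loops of 1 to 25, on either strand. Scripts were run in Python 3.11.15 with matplotlib 3.10.9, SciPy 1.17.1 and NumPy 2.4.6, and the scripts were tested on simulated data.

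The regions, gene lists and alternatives were chosen with earlier results of these data known. Named are the neighbours of the 15 strongest summits, the regions with most summits, up to 4 regions per list or content class, the 3 longest regions without a summit, and, chosen after their values were seen, PDR5/SLP1, KAR2, PAU22/YRF1-7, PAU14/YIL177C, KSH1/SSN8, YCF1/MRX16 and the non-terminal G4 regions. Library depths are not in the peak list.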

Additional observations from a re-analysis of the deposited data

How the results depend on the processing

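The 5 summary values were recomputed under 13 alternatives, 2 of them chosen after seeing the data (regions with a telomeric element left out, and ribosomal DNA taken by annotation alone). Only the share of summits nearer the downstream start and the density ratio had a direction that could change. Neither did, with highest values of 48.8% and 0.679. With peaks of 3-fold or more, 36 regions (1.38%) held a summit and the median fold was 3.99, and with 1 bp of overlap in place of the summit 281 regions (10.8%) were reached, the median fold was 2.92 and 34.1% of peaks lay nearer the downstream start. Without the terminal 20 kb that share was 34.1% as well. Without regions beside a ribosomal protein gene, 3.03% of regions held a summit, and the density ratio to the rest of the nuclear genome was 0.471. By construction the first of these uses fewer peaks and the second counts peaks whose summit is in a gene. Under the other alternatives the count lay between 75 and 104 regions, the median fold between 2.39 and 2.62, and the shares and the density ratio within their 95% counting intervals. No paired analysis was possible because the libraries were pooled before the peaks were called, so the replicate numbers shared by IP and input carry no values, and for the same reason no replicate could be left out. The fold rests on 1 assumed assignment of IP and input, on a single strain without an untagged control analysed here, and on a reference of another strain.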
